A study of Homo sapiens with 12 samples.

Results

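DEAD and DEAH box RNA helicases were taken as the gene names that start with DDX or DHX and a digit, and their transcripts were followed through 6 peak lists of RNA immunoprecipitation sequencing (RIP-seq), with METTL16, eIF3a and eIF3b each pulled down in 2 replicates. The rule found 42 genes, 28 DDX and 14 DHX, among 10830 gene names. They carried 516 peaks. RIP-seq pulls down a protein with an antibody and sequences the RNA that comes with it, and a peak is a stretch of exons where the pulled-down RNA exceeds the input RNA. HepG2 cells, a long-established line from a human liver cancer, were infected to give stable lines with 3XFlag-tagged METTL16, eIF3a or eIF3b. All 6 RIP samples therefore came from cells that overexpressed a tagged protein. Ultraviolet light was used to cross-link protein to RNA. The labels give a Flag antibody for METTL16 and eIF3b and an eIF3a antibody for eIF3a, whereas the names of the lists say flag for all, so antibody and protein cannot be told apart for eIF3a. Each RIP group had an input group of equal size, which was not analysed here on its own, and no list from a control antibody was analysed here.

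DEAD and DEAH box helicases use ATP to open RNA duplexes or to strip proteins from RNA. Their names spell, in single-letter amino acid code, a motif that takes part in ATP hydrolysis and sits in the conserved helicase core, while their N- and C-terminal extensions differ from member to member. They act in splicing, mRNA export, ribosome assembly, translation and RNA decay. METTL16 is an RNA methyltransferase, and eIF3a and eIF3b are subunits of the translation initiation factor eIF3. The values below describe binding to the mRNAs that code for helicases, not to the helicase proteins.

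The lists set the limits of the comparison. The list of eIF3a replicate 2 stood apart for helicases, with 43 helicase peaks where the other 5 lists held 66 to 116. Over all genes it was not as far apart. It held 12921 peaks, near the 13199 and 13136 of the METTL16 lists, while eIF3a replicate 1 and the eIF3b lists held 20027 to 21733. Depth behind a peak is unknown because the lists hold no read counts, and replicates are given as biological in the methods, with no word on separate cultures. With 2 lists against 2, an exact two-sided permutation test cannot give a p under 0.333, so differences between proteins are given as replicate values and as overlap or no overlap between them. Of 9 liver markers, 8 had a peak in some list and 2 in all 6. Of 6 markers of cell types that the culture should lack, 4 had a peak in some list, with no such marker in all 6. For comparison, 53.5% of annotated protein coding genes had a peak in some list, and 25.2% of all gene names were in all 6. These few markers therefore do not tell the cell type. A peak measures enrichment over input and not the level of a transcript.

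Coding bases of 5 genes lay under a peak in all 6 lists. A stretch within 1 exon is shown for 4 of them, to let the shared sequence be read, and DDX46, which had 91 such bases, is not printed. A further stretch, from DHX36, was shared by the 5 lists that named this gene. They are written 5′ to 3′ on the transcript strand (GRCh38), with capitals for the bases under a peak in each of those lists.
DDX39B, exon 7, chr6:31532780-31532911, minus strand: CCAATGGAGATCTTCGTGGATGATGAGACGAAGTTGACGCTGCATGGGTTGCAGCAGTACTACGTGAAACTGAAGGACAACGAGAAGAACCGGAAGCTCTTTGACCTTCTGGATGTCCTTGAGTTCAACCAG
DDX42, exon 16, chr17:63815563-63815673, plus strand: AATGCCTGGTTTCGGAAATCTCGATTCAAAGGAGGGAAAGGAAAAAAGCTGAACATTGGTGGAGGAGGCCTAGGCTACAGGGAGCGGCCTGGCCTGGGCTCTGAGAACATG
DDX54, exon 15, chr12:113164080-113164285, minus strand: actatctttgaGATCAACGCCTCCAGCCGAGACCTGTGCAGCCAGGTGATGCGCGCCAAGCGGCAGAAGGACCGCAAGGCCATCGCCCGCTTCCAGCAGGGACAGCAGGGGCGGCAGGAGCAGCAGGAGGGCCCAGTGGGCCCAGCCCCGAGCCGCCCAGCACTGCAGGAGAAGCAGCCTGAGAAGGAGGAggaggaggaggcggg
DHX38, exon 2, chr16:72096326-72096475, plus strand: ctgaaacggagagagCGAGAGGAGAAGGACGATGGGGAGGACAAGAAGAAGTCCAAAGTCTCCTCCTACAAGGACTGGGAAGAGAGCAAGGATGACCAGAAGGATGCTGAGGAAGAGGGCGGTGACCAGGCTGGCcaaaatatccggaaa
DHX36, exon 1, chr3:154324182-154324332, minus strand: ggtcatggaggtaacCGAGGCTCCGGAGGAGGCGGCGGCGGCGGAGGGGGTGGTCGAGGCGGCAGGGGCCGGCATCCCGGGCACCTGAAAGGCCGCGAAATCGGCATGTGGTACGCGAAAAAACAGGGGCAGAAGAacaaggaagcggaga
The DDX39B and DDX42 stretches each filled a whole exon. Purines (A and G) made up 56.8% of the capitals in DDX39B, 64% in DDX42, 60.6% in DDX54, 72.5% in DHX38 and 68.6% in DHX36.

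Helicase transcripts were named often. Of 42 genes, 31 had a peak in METTL16 replicate 1 (73.8%, against 53.8% of all gene names) and 35 in replicate 2 (83.3%, against 58.5%). In eIF3a replicate 1, 39 had a peak (92.9%, against 75.4%), and in replicate 2, 22 did (52.4%, against 48.3%). Both eIF3b lists named 38 (90.5%, against 74.5% in replicate 1 and 69.9% in replicate 2). The helicase share exceeded the background in each list, and least so in eIF3a replicate 2. No test was run on the members as a set. The METTL16 shares lay below both eIF3b shares without overlap, but with the 5000 peaks of smallest p in each list they touched, at 42.9% and 35.7% against 42.9% and 47.6%. With all peaks, the 2 eIF3a shares enclosed those of METTL16 and of eIF3b.

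**Figure D1:**
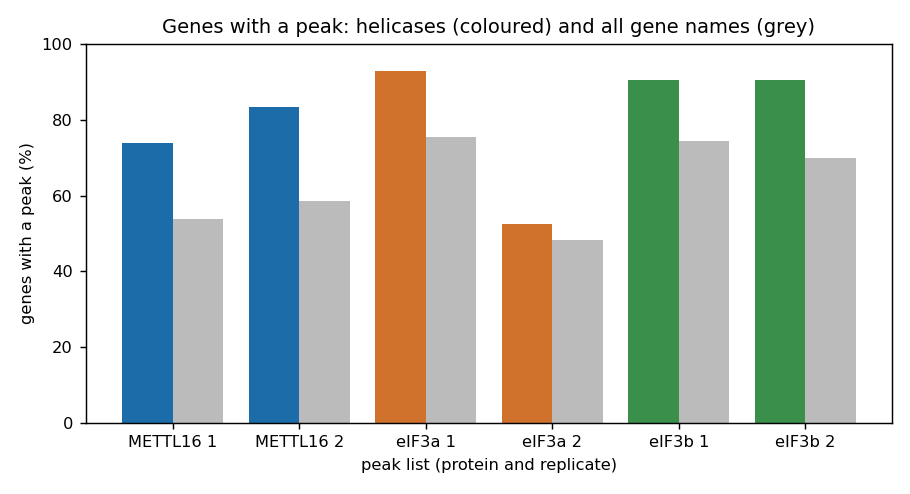
Share of genes with a peak (%), per list, for the 42 helicase genes (coloured bars, 1 colour per protein) and for all 10830 gene names (grey bars). The helicase bar is the higher in each list, from 52.4% against 48.3% in eIF3a replicate 2 to 92.9% against 75.4% in eIF3a replicate 1.

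Peaks in both replicates were found on 28 helicase genes for METTL16 (66.7%, against 42.6% of all gene names), 22 for eIF3a (52.4%, against 42.4%) and 35 for eIF3b (83.3%, against 60%). The eIF3a count was set by replicate 2, since replicate 1 alone named 39. All 22 helicase genes of eIF3a replicate 2 were also named by replicate 1. Over all gene names, 4596 of the 5226 in replicate 2 were, so such nesting was common. All 6 lists named 17 genes (40.5%, against 25.2%), which were DDX6, DDX10, DDX11, DDX19A, DDX27, DDX39B, DDX41, DDX42, DDX46, DDX51, DDX52, DDX54, DHX8, DHX33, DHX34, DHX37 and DHX38. No helicase gene was named by a single list, against 1739 of all 10830 gene names. Another 14 were in 5 lists (33.3%, against 18%), namely DDX3Y, DDX5, DDX17, DDX18, DDX23, DDX24, DDX31, DDX47, DDX49, DDX55, DHX15, DHX30, DHX35 and DHX36. DDX21, DDX56 and DHX57 were in 4 lists (7.14%, against 14.4%), and DDX1, DDX19B and DHX29 in 3 (7.14%, against 13%). DDX39A, DDX58, DHX9, DHX40 and DHX58 were in 2 (11.9%, against 13.4%, near the background). At the level of bases, agreement was narrower. Peaks covered 55840 exonic bases of helicases in some list, and 1387 of them lay under a peak in all 6 lists. These were spread over 7 genes, with 1176 bases in coding sequence and 211 in 3′ UTRs. The annotation holds 55 protein coding genes that fit the rule, so 42 is 76.4% of them, against 53.5% of all annotated protein coding genes. The 13 others were DDX3X, DDX4, DDX20, DDX25, DDX28, DDX43, DDX50, DDX53, DDX59, DDX60, DDX60L, DHX16 and DHX32, for which no peak was analysed here.

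Reads from near-identical copies can be split or placed on the wrong copy, so 4 of these symbols are uncertain. DDX3Y resembles DDX3X, DDX11 resembles the pseudogene DDX12P, and DDX19A and DDX19B resemble each other. DDX39B also has pseudogenes and shares its exons with an annotated read-through transcript of the neighbouring gene ATP6V1G2.

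**Figure D2:**
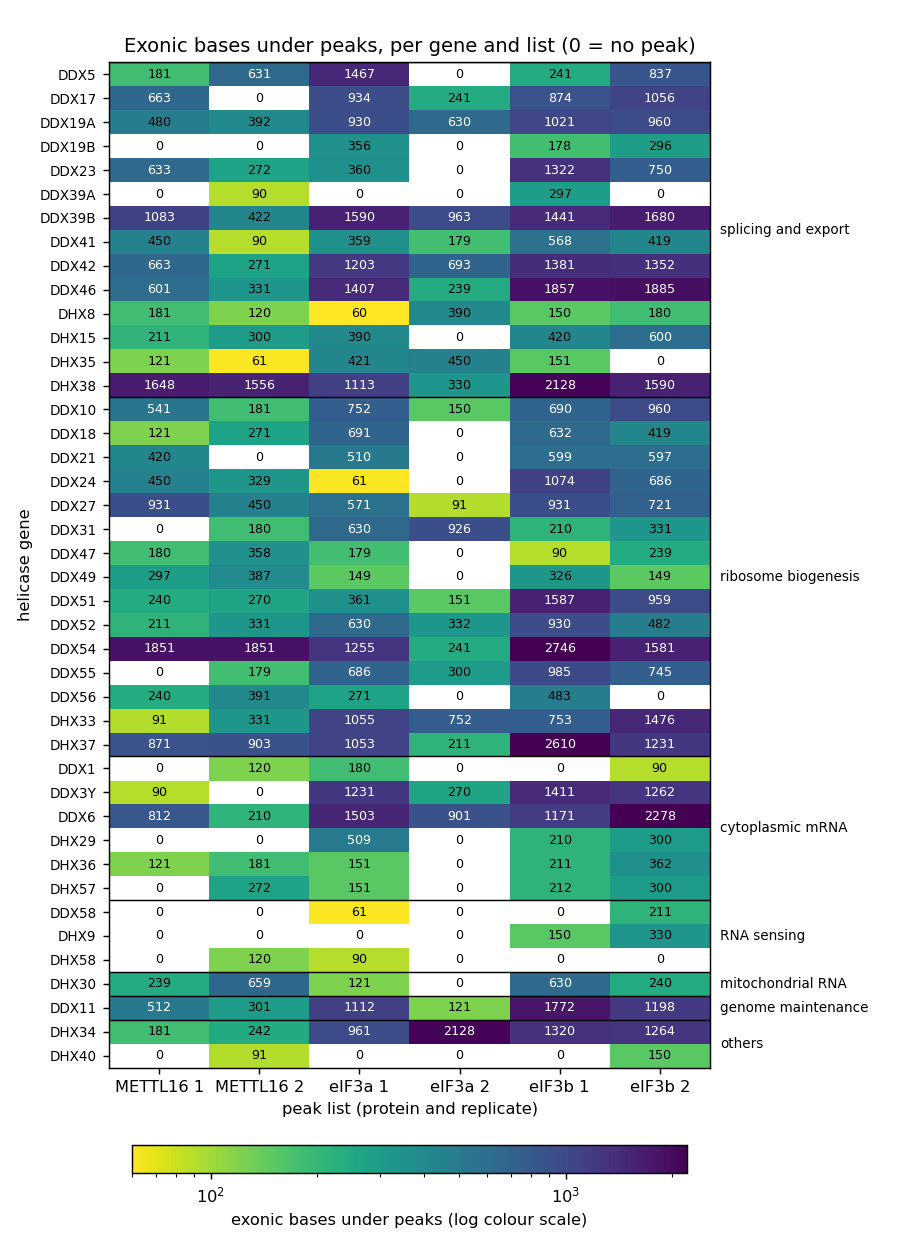
Exonic bases under peaks for each of the 42 helicase genes (rows, grouped by role, DHX9 under RNA sensing) in each list (columns), with the value printed and coloured on a log scale. Zero, in white, means no peak, and 20 of 42 cells are white in eIF3a replicate 2.

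Helicases of splicing and mRNA export made up 14 of the 42 genes. Both METTL16 replicates named 11 of them, both eIF3a replicates 9 and both eIF3b replicates 12, and 7 were in all 6 lists. These are 78.6%, 64.3%, 85.7% and 50%, against 42.6%, 42.4%, 60% and 25.2% of all gene names. Their peaks covered a median of 540 and 286 exonic bases per gene in the METTL16 lists, 930 and 390 in the eIF3a lists and 721 and 898 in the eIF3b lists. The METTL16 and eIF3a values overlapped, as did those of eIF3a and eIF3b, and METTL16 lay below eIF3b without overlap. Over all genes METTL16 also lay below eIF3b, at 301 and 301 against 447 and 392, so this order was not particular to these helicases.

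DDX39B (chromosome 6, 31530219 to 31542448, minus strand), which loads mRNA export factors during splicing, was among the 3 best ranked helicases by p-value for each protein. Its rank among all genes was 1738 and 781 in the METTL16 lists, 109 and 899 in the eIF3a lists, and 240 and 142 in the eIF3b lists. Peaks covered 1083 and 422 of its exonic bases for METTL16, 1590 and 963 for eIF3a, and 1441 and 1680 for eIF3b. The METTL16 and eIF3b values did not overlap, and the METTL16 and eIF3a values did. In eIF3a replicate 1 a single peak of 1590 bases ran over all 11 exons, and in eIF3b replicate 2 a single peak of 1680 bases did, while eIF3a replicate 2 had 3 separate peaks. The bases common to all 6 lists numbered 392, the most of any helicase. Fold enrichment over input stayed modest, at most 1.82 and 2.66 for METTL16, 3.58 and 1.95 for eIF3a, and 3.53 and 4.4 for eIF3b.

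DHX38 (chromosome 16, 72093613 to 72112912, plus strand), the PRP16 helicase that remodels the spliceosome, ranked second for METTL16 (1032 and 1248 among all genes). Its covered bases were 1648 and 1556 for METTL16, 1113 and 330 for eIF3a, and 2128 and 1590 for eIF3b. eIF3a was the lowest, with no overlap with either other protein. Peaks of each list gathered on exons 2 to 14 of 27, and in 5 lists again on the last exons, with a sparsely covered stretch between. eIF3a replicate 2 lacked the 3′ group. The 181 bases common to all lists were coding, and 120 of them are the purine-rich stretch of exon 2 shown above.

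DDX42 (chromosome 17, 63773603 to 63819317, plus strand), a factor of the U2 snRNP, had 663 and 271 covered bases for METTL16, 1203 and 693 for eIF3a, and 1381 and 1352 for eIF3b. eIF3b lay above both other proteins, and METTL16 lay below eIF3a, without overlap. All lists marked exons 15 to 17, with fold enrichments of 2.24 and 2.49 for METTL16, 2.49 and 1.54 for eIF3a, and 2.32 and 2.86 for eIF3b. These 6 folds overlapped between proteins. A second peak in the last exon, in the coding sequence, was also found in each list.

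DDX19A (chromosome 16, 70346861 to 70373383, plus strand), a helicase of mRNA export at the nuclear pore, carried most of its covered bases in the 3′ UTR in each list but METTL16 replicate 2. Its covered bases were 480 and 392 for METTL16, 930 and 630 for eIF3a, and 1021 and 960 for eIF3b, so METTL16 was the lowest without overlap, and the 121 bases common to all lists were in the 3′ UTR. The copy DDX19B (chromosome 16, 70289663 to 70335305, plus strand) had no peak for METTL16 or in eIF3a replicate 2, 356 bases in eIF3a replicate 1, and 178 and 296 in the eIF3b lists.

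DDX5 and DDX17, closely related cofactors of splicing and transcription, were each in 5 lists. DDX5 (chromosome 17, 64498254 to 64508199, minus strand) had 181 and 631 covered bases for METTL16, 1467 and 0 for eIF3a, and 241 and 837 for eIF3b, so the proteins overlapped. DDX17 (chromosome 22, 38483438 to 38507660, minus strand) had 663 and 0 for METTL16, 934 and 241 for eIF3a, and 874 and 1056 for eIF3b. Here eIF3b lay above METTL16 without overlap. Enrichment on both was low, at most 2.27-fold on DDX5 and 4.72-fold on DDX17.

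Ribosome biogenesis and nucleolar helicases numbered 15. Both METTL16 replicates named 12, both eIF3a replicates 9 and both eIF3b replicates 14, and 7 were in all 6 lists. The shares were 80%, 60%, 93.3% and 46.7%, above the same 4 background shares. DDX54 (chromosome 12, 113157173 to 113185479, minus strand), a nucleolar helicase, was the best ranked helicase for METTL16, 286 and 179 among all genes, and had the most covered bases of any helicase on average, 1588. The values were 1851 in both METTL16 lists, 1255 and 241 in eIF3a, and 2746 and 1581 in eIF3b. eIF3a was the lowest without overlap, and METTL16 lay within the range of eIF3b. The highest fold on its coding sequence was 7.04 and 10.5 in METTL16, 3.62 and 1.79 in eIF3a, and 5.91 and 3.6 in eIF3b, so METTL16 stood above the others there. A peak with a fold of 16.5 in eIF3b replicate 1 lay in its 3′ UTR.

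DHX37 (chromosome 12, 124946825 to 124989131, minus strand), which acts on the small ribosomal subunit precursor, had 871 and 903 covered bases for METTL16, 1053 and 211 for eIF3a, and 2610 and 1231 for eIF3b. eIF3b lay above both others. DDX21 (chromosome 10, 68956135 to 68985068, plus strand), a nucleolar helicase of rRNA synthesis, had 420 and 0, 510 and 0, and 599 and 597 bases in the same order. The covered bases of DDX21 included its start codon in all 4 lists that named it. DDX52, singled out after its values were seen, held the highest helicase fold in 4 lists, METTL16 replicate 1 (15.9), both eIF3a replicates (52.1 and 19.6) and eIF3b replicate 1 (49.4), and reached 11.9 in METTL16 replicate 2 and 29.4 in eIF3b replicate 2. These peaks lay in its 3′ UTR, with 90 bases common to all 6 lists, although the peak of 15.9-fold lay farther 3′ than those 90 bases. The high folds did not go with high ranks by p-value. DDX52 ranked 5150 of 5829 genes and 4123 of 6337 for METTL16, and 2506 of 8166 and 3982 of 5226 for eIF3a. For eIF3b it ranked 3928 of 8063 and 3934 of 7570.

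Cytoplasmic helicases of mRNA translation and decay numbered 6. Both METTL16 replicates named 2, both eIF3a replicates 2 and both eIF3b replicates 5, and only DDX6 was in all 6 lists. The shares were 33.3%, 33.3%, 83.3% and 16.7%, below the background of 42.6%, 42.4% and 25.2% for METTL16, eIF3a and all lists, and above the 60% of eIF3b. DDX6 (chromosome 11, 118747763 to 118791164, minus strand), a repressor of translation that works with the decapping machinery, had 812 and 210 covered bases for METTL16, 1503 and 901 for eIF3a, and 1171 and 2278 for eIF3b, so METTL16 was the lowest without overlap. Apart from a 5′ UTR peak in eIF3a replicate 2 and eIF3b replicate 2, every DDX6 peak was centred in the 3′ UTR. No base was common to all 6 lists. A fold of 47 in eIF3b replicate 2 belonged to a peak that eIF3b replicate 1 lacked.

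DHX29 (chromosome 5, 55256055 to 55307694, minus strand), which helps the small ribosomal subunit scan structured 5′ UTRs, had no peak for METTL16 or in eIF3a replicate 2, 509 bases in eIF3a replicate 1, and 210 and 300 in eIF3b. DHX36 (chromosome 3, 154272546 to 154324487, minus strand), which unwinds G-quadruplexes, had 121 and 181 covered bases for METTL16, 151 and 0 for eIF3a, and 211 and 362 for eIF3b. All 5 lists that named it placed a peak on exon 1, with folds of 11.3 and 7.15 for METTL16, 47.1 for eIF3a replicate 1, and 33.6 and 6.06 for eIF3b. The eIF3b replicates enclosed the METTL16 folds. By p-value DHX36 ranked 4483 of 5829 genes and 3788 of 6337 for METTL16, and 3040 of 8166 for eIF3a replicate 1. For eIF3b it ranked 3383 of 8063 and 4042 of 7570. The GC content of the stretch shown above was 70.2%. DHX9 (chromosome 1, 182839347 to 182887982, plus strand), a helicase of nuclear RNA and of RNA sensing, was named by eIF3b alone, with 150 and 330 bases that included the start codon in both replicates. Of the 3 RNA sensing genes, DDX58, DHX9 and DHX58, none was in more than 2 lists. Over all gene names, 1739 of 10830 were in 1 list and 13.4% were in 2. With only 3 genes, no difference from this background can be read.

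DHX34 (chromosome 19, 47349315 to 47382704, plus strand), a helicase of nonsense-mediated decay, was among the best ranked for eIF3a (1828 and 255). Its covered bases were 181 and 242 for METTL16, 961 and 2128 for eIF3a, and 1320 and 1264 for eIF3b, so METTL16 was the lowest without overlap. A single peak of 2007 bases and a fold of 14.9 in eIF3a replicate 2 ran over exons 1 to 7.

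**Figure D3:**
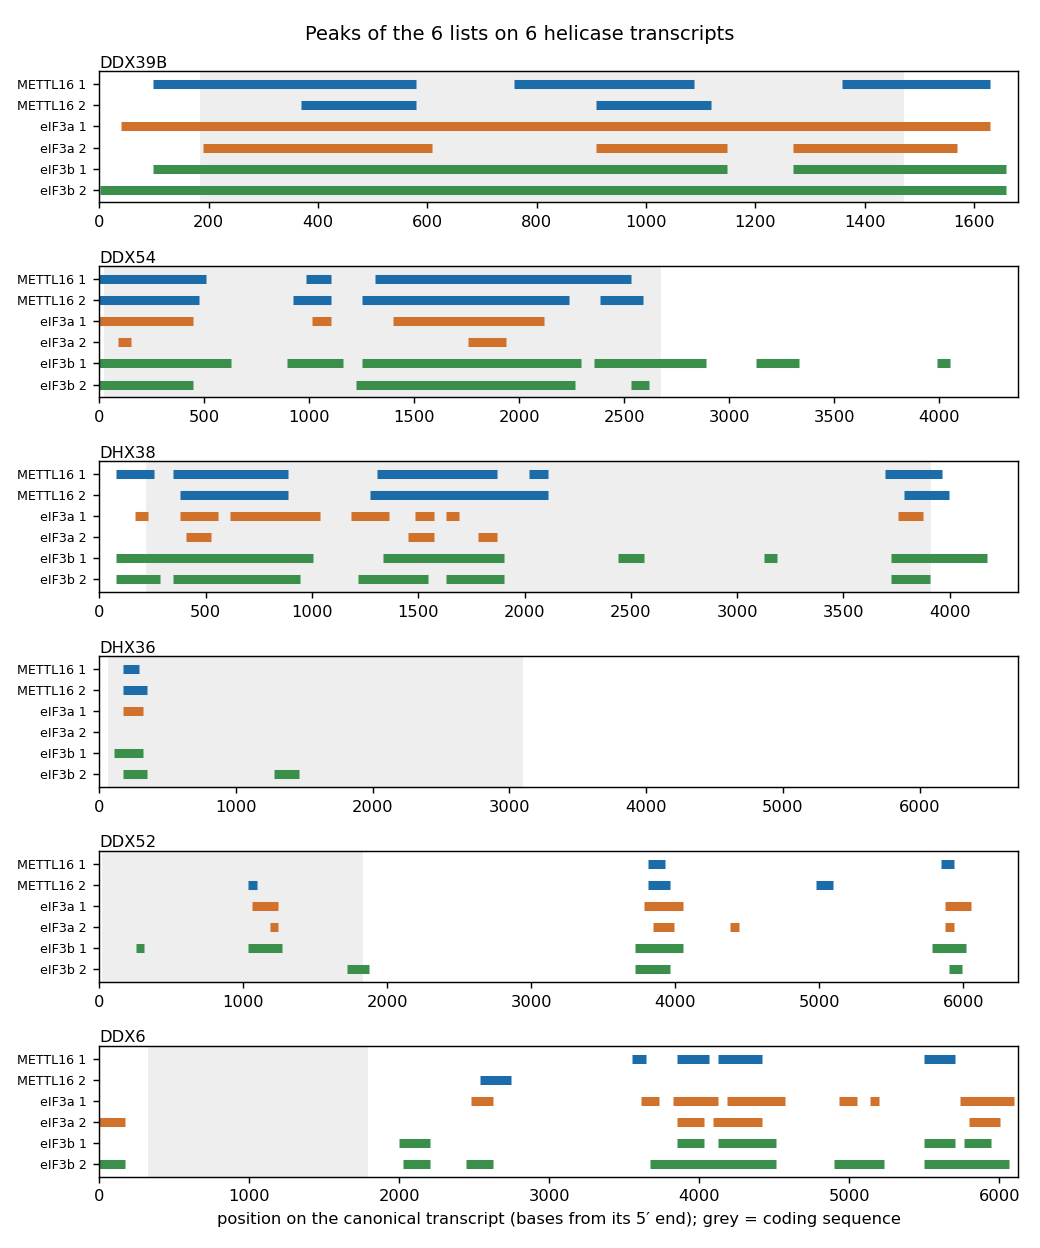
Extent of each peak (bars) of the 6 lists along the canonical transcripts of DDX39B, DDX54, DHX38, DHX36, DDX52 and DDX6, in bases from the transcript's 5′ end, with the coding sequence in grey. DHX36 is marked on exon 1 by 5 lists, and most peaks of DDX52 and DDX6 lie 3′ of the coding sequence.

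Peak width was alike for METTL16 and eIF3a and larger for eIF3b. Median exonic width of helicase peaks was 181 and 179 bases for METTL16, 180 and 179 for eIF3a, and 210 in both eIF3b lists. Widths of single peaks clustered near values such as 150, 180 and 210, so this gap of medians was 1 step between such values. The gap of eIF3b widened with stricter peaks, to 582 and 449 bases against 225 and 300 for METTL16 and 331 and 240 for eIF3a among the 5000 peaks of smallest p. Over all genes and all peaks the median was 180 and 180, 180 and 210, and 210 and 181, so the order of proteins seen in the helicases was not that of all genes. Exonic bases under peaks per gene had medians of 420 and 272 for METTL16, 571 and 315 for eIF3a, and 722 and 704 for eIF3b, against 301 and 301, 360 and 446, and 447 and 392 over all genes. eIF3b was highest without overlap on this measure as well. Helicase peaks lay within 1 exonic block less often than peaks of all genes in each list, in 34.8% to 53.5% against 54.3% to 62.1%, and the canonical transcripts of the helicases had a median of 17 exons against 10. Median fold enrichment of helicase peaks was 2.11 to 2.71 across lists, against 2.73 to 3.4 over all genes.

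Most helicase peaks were centred in coding sequence. The share was 76.7% and 89.4% for METTL16, 67.6% and 65.1% for eIF3a, and 73% and 69.2% for eIF3b, against 61% and 68.7%, 56.8% and 58.1%, and 61.1% and 57.7% over all genes. The 3′ UTR share was 21.9% and 10.6% for METTL16, 28.8% and 32.6% for eIF3a, and 24.3% and 29% for eIF3b, so METTL16 was the lowest without overlap. This separation was lost when only the peak of smallest p of each gene was kept, with 19.4% and 8.57%, 20.5% and 13.6%, and 15.8% and 21.1% in the same order. Over all genes these shares were 32% and 24.1%, 38.2% and 38.6%, and 30.4% and 36.2%. Helicase transcripts hold more coding sequence than others, 62.2% of canonical transcript bases against 46.7%, and less 3′ UTR, 35.1% against 48.4%, and the part of this in the position of the peaks was not tested. Between families, DHX peaks were centred in the 3′ UTR less often than DDX peaks in each list (a difference that was not tested), at 4.17% to 22.9% against 14.3% to 38.7%. The 3′ UTR lengths of DDX and DHX transcripts were not compared. The DHX shares rest on few peaks, only 12 in eIF3a replicate 2 against 31 for DDX. Start codons were covered in 9 and 5 helicase genes for METTL16, 12 and 2 for eIF3a, and 17 and 14 for eIF3b, out of 31, 35, 39, 22, 38 and 38 genes with a peak. The shares with a covered start codon were 29% and 14.3%, 30.8% and 9.09%, and 44.7% and 36.8%, against 17.8% and 18.2%, 14.7% and 12.7%, and 25.1% and 17.3% of all genes with a peak. METTL16 replicate 2 and eIF3a replicate 2 thus lay below the background and the other 4 lists above it. Stop codons were covered in 3 and 5, 6 and 2, and 11 and 11 genes. These were 9.68% and 14.3%, 15.4% and 9.09%, and 28.9% and 28.9%, against 19% and 18.6%, 19.4% and 13.6%, and 24.1% and 22.5%, so the share was below the background for METTL16 and eIF3a and above it for eIF3b. For both codons the helicase share was highest for eIF3b, without overlap.

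Within the coding sequence the helicase peaks were unevenly placed, a pattern looked for after the peaks had been seen. Each coding sequence was divided into 5 equal segments. Coverage of the first segment was 31.2% and 18.7% for METTL16, 32.7% and 16.5% for eIF3a, and 44% and 38.3% for eIF3b. Coverage of the middle segment was 7.6% and 13.1%, 6.58% and 9.86%, and 15.9% and 11.7% in the same order. The first segment exceeded the middle in all 6 lists, by 5.64 points in METTL16 replicate 2 and 6.69 in eIF3a replicate 2 and by 23.6 to 28.1 in the other 4. In eIF3a replicate 2 the second segment, at 21.6%, was the most covered. The last segment exceeded the middle in 5 lists, with eIF3a replicate 2 the exception at 9.51%. Over all genes with a peak the first segment did not exceed the middle in any list. Examples are 14.7% against 15.5% in METTL16 replicate 1 and 22.8% against 23.8% in eIF3b replicate 1. The helicase first segment was not above that of all genes in each list. It was 16.5% against 22% in eIF3a replicate 2 and 18.7% against 17.8% in METTL16 replicate 2. In these lists the helicase middle segment was low, at 9.86% against 26% and 13.1% against 19%. In the other 4 lists the helicase first segment lay above that of all genes. By gene, the first segment was the more covered in 21 of 31 members of METTL16 replicate 1 and the less covered in 1. In METTL16 replicate 2 these counts were 13 and 9 of 35. They were 23 and 4 of 39 and 9 and 2 of 22 for eIF3a, and 26 and 4 of 38 and 23 and 2 of 38 for eIF3b, with the rest equal.

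**Figure D4:**
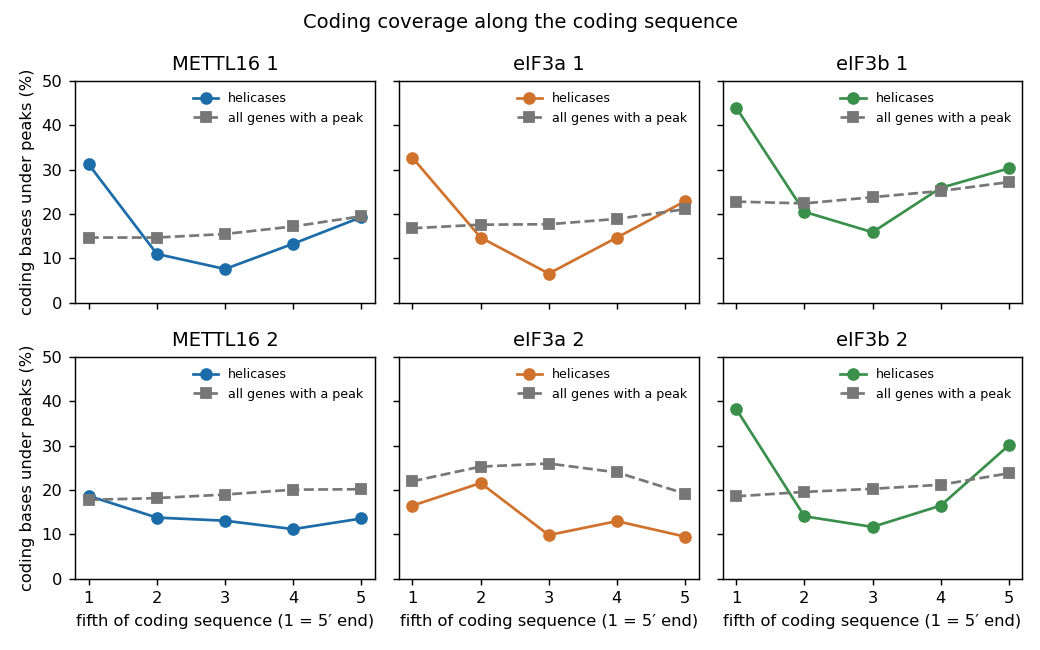
Share of coding bases under peaks (%) in each of 5 equal segments of the coding sequence, from the 5′ end, for helicase genes with a peak in the list (coloured circles) and all genes with a peak in it (grey squares). Helicase coverage is lower in the middle than in the first segment in each list, for example 15.9% against 44% in eIF3b replicate 1, and in eIF3a replicate 2 the second segment is the highest at 21.6%.

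The codons of the motif that names the family lie at varied places along the coding sequence. They ran from 0.221 of its length in DHX40 to 0.668 in DDX23. Some thus fall in the middle segment and others before or after it. In 29 members, 22 DDX and 7 DHX, the canonical coding sequence encoded the letters of the symbol's family name. A first version of this count had taken either set of letters in any member, and was narrowed after its result was seen. Codons from 3 members are shown in their coding context, with the 12 motif bases in capitals and the position of those bases on GRCh38.
DDX5, codons at chr17:64503245-64503256, DEAD: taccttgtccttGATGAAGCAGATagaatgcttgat
DDX54, codons at chr12:113176842-113176853, DEAD: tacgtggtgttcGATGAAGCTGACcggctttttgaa
DHX38, codons at chr16:72104075-72104086, DEAH: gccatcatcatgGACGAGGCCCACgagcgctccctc
In DDX54 and DHX38, with the most covered bases of all helicases on average, no list covered these codons, and in DDX5 eIF3a replicate 1 and eIF3b replicate 2 did. DDX39B, the next by covered bases, lacked these letters and was left out of the motif counts. Coverage of its middle segment was 77.8% and 19.5% for METTL16, 100% and 19.5% for eIF3a, and 100% in both eIF3b lists.

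The motif codons lay under a peak in 11 of the 29 members in some list. Among members with a peak, they were covered in 1 of 24 and 2 of 26 for METTL16, 2 of 28 and 4 of 18 for eIF3a, and 4 of 27 in both eIF3b lists. Coding coverage within 300 bases of the motif was 6.24% and 12.9% for METTL16, 7.92% and 14.7% for eIF3a, and 13.2% and 7.09% for eIF3b. Beyond 300 bases it was 21.9% and 17%, 24.1% and 9.16%, and 36.9% and 31.2%. Coverage near the motif was thus the lower in 5 lists, and eIF3a replicate 2 went the other way. The same peaks underlie this and the comparison of segments, so the 2 are not independent of each other. The motif and its window were chosen after the peaks had been seen, and no test was run.

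**Figure D5:**
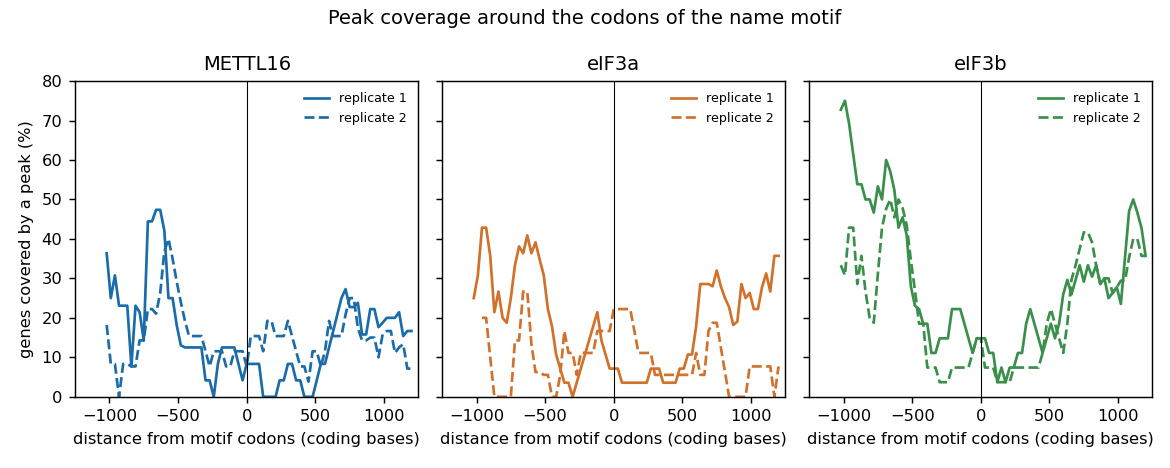
Share of helicase genes (%) whose coding sequence lies under a peak at each distance from the motif codons, in coding bases, negative towards the 5′ end, for positions with at least 10 genes. Solid and dashed lines are replicates 1 and 2. Averaged over positions, coverage within 300 bases of the motif is lower than farther away in each list but eIF3a replicate 2, where it is higher, although single positions depart from this.

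Base composition was examined after the shared stretches had been read. Coding bases of helicases under a peak were 60.4% and 57% purine for METTL16, 59.9% and 54.4% for eIF3a, and 58.5% and 59.9% for eIF3b. Coding bases of the same genes outside peaks were 53.8% and 54.3%, 53.8% and 55.1%, and 53.4% and 53.6%. Purines were the more common under peaks in 5 lists and the less common in eIF3a replicate 2. Whole peaks of helicases held 54.1% to 58.4% purines across lists, against 52.2% to 54.1% for peaks of all genes. Mean GC content of helicase peaks was 53.4% and 55.7% for METTL16, 50.8% and 53% for eIF3a, and 53.6% and 50.2% for eIF3b. It was below that of all peaks in each list, which was 59% and 60.8%, 53.7% and 53.1%, and 58.1% and 54.1%.

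Other RNA helicases, outside the DDX and DHX names, were set beside them as a comparison list. Of 22 such genes, 20 were named in some list and 7 in all 6, among them UPF1 of nonsense-mediated decay and SNRNP200 of the spliceosome. The 7 are 35% of the 20 named, against 25.2% of all gene names and 40.5% of the DDX and DHX genes. Both METTL16 replicates named 9, both of eIF3a 9 and both of eIF3b 15. Of the 20 named these are 45%, 45% and 75%, against 42.6%, 42.4% and 60% of all gene names, so for METTL16 and eIF3a the list sat near the background. EIF4A1 and EIF4A2, helicases of translation initiation, were named in 1 and 3 lists, and EIF4A3, of the exon junction complex, in 4.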

How the data were processed

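Of 12 samples, the 6 RIP lists were analysed. The authors aligned reads with STAR (GRCh38) and used exomePeak to find RIP peaks against input. Versions, the gene annotation and the pairing of RIP with input are not given in the sources used here. The deposited lists give each peak's exonic blocks, gene name and p-value, the log10 of the p-value (used here as a score for ranking), and the fold enrichment, a ratio of RIP over input. The largest adjusted p-value was 0.0501.

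Members were matched by symbol, and all 42 matched GENCODE release 44 on the same assembly (DDX58 through its current name, RIGI). Positions use the canonical transcript, and a peak was placed by its central exonic base. A gene's rank within a list follows its smallest p-value. Values were computed with Python 3.11.15, pandas 2.3.3, NumPy 2.4.6 and pysam 0.24.0. The code that places peaks was tested on simulated gene models, and the permutation code on a small example with a known answer. Groups came from the sample titles. Pairing by replicate number was checked by correlating replicate differences in covered bases over the 42 genes, which gave r of 0.224, -0.109 and 0.0992, so the numbers were not treated as pairs. Genes with full values were the 3 best ranked per protein, the 5 with the most covered bases, the 5 with the most bases shared by all lists, those named in both replicates of 1 protein and in no list of another protein, and DDX5, DDX17, DDX3X, DDX6, DDX21, DHX9, DHX29 and DHX36. Members, lists and roles were chosen with earlier results of these data known. Alternatives were peaks with at least 4-fold enrichment, each list's top 5000 peaks by p-value, other denominators and counting rules, and leaving out each replicate. Inputs were not analysed.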

Additional observations from a re-analysis of the deposited data

How the results depend on the processing

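Over 12 planned results and 96 alternatives, 80 values kept their direction or, for counts, stayed within 1.5 times the first value. Part of the 80 could not have changed. All 42 members are protein coding, so keeping coding members only left the counts as they were. The denominator of all annotated genes only rescaled the shares, and the replicate block kept each difference. The count of 80 is therefore no measure of stability. Helicase genes with a peak in both replicates numbered 6, 5 and 13 for METTL16, eIF3a and eIF3b at a fold enrichment of at least 4, and 12, 7 and 16 with the 5000 peaks of smallest p per list. A peak in either replicate gave 39 for eIF3a. With a replicate left out the counts were 31 to 35 for METTL16, 22 to 39 for eIF3a and 38 for eIF3b. The share of helicase genes with a peak, METTL16 minus eIF3a, was 5.95 percentage points and ran from -14.3 (without eIF3a replicate 2) to 26.2. For eIF3a minus eIF3b it was -17.9 and ran from -38.1 to 2.38, the last without eIF3a replicate 2. Median width, METTL16 minus eIF3a, was 0.5 bases, -23 with the 5000 peaks, -97 as bases per gene and -44.5 for the widest peak per gene, and ran from -0.5 to 1.5 with a replicate left out. The 3′ UTR share, eIF3a minus eIF3b, was 4.03 points, -8.32 at a fold of at least 4 and -1.35 for the peak of smallest p per gene. Width minus eIF3b was -30 for METTL16 and -30.5 for eIF3a, and became -112 and -120 at a fold of at least 4 and -253 and -230 with the 5000 peaks. The share of genes, METTL16 minus eIF3b, went from -11.9 to -5.95 points with the 5000 peaks. With the smallest-p peak per gene, the METTL16 difference in 3′ UTR share went from -14.4 to -3.11 against eIF3a and from -10.4 to -4.46 against eIF3b. A replicate block leaves a mean difference as it is by construction (-14.4 again for the first of these), and with 2 pairs its p cannot fall under 0.5, so it tells nothing about stability.

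Alternatives for the coding segments and the motif window were added after seeing the data. The first segment exceeded the middle by 14.6, 16.4 and 27.3 points for METTL16, eIF3a and eIF3b, and under all alternatives tried the sign held. Coverage near the motif minus beyond was -9.9, -5.29 and -23.9 points. For eIF3a it became 18.8 at a fold of at least 4, 2.53 with the 5000 peaks and ran from -16.1 without replicate 2 to 5.55 without replicate 1, so its direction rests on that replicate. The cause was not tested. With no read counts, depth limits which absent peaks can be read as unbound.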
